A study of Mus musculus with 66 samples.

Results

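The genes described here mark macrophages or carry out antigen presentation, and were followed in whole mouse testes over the first 56 days of life. They were Csf1r, Cd68, Adgre1, Lyz2, C1qa, C1qb, H2-Aa, H2-Ab1, H2-Eb1 and Cd74, 10 genes chosen by name. Every probe set whose annotation named 1 of these 10 genes alone was taken, whatever its signal. All 10 genes were carried by the arrays, on 18 of 36899 probe sets that together name 15964 genes. Of these 18, 15 were on the array type here called A, 1 on type B and 2 on type C. Cd74, H2-Ab1 and C1qa had 1 probe set each, 6 members had 2, and H2-Aa had 3.

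The samples were total RNA from whole testes of BL/6-129 mice aged 0, 3, 6, 8, 10, 14, 18, 20, 30, 35 and 56 days after birth. No animal was labelled with a treatment or an engineered allele, so age is the only labelled difference between the groups. There were 2 numbered samples a day, each measured on 3 array types, which gives 66 arrays. Whether both samples of a day came from separate animals or pools is not labelled, so p values measure the spread between these samples, which may be technical. Days were grouped into 4 stages, namely days 0 to 6 (6 samples), days 8 to 10 (4), days 14 to 20 (6) and days 30 to 56 (6).

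Macrophages are the most common immune cells of the testis. They lie between the tubules beside Leydig cells and around the tubule wall, and depend on signals through CSF1R, the receptor for macrophage colony stimulating factor. Many secrete complement C1q, which tags debris for uptake. Antigen presentation to CD4 T cells uses class II molecules, each made of an alpha and a beta chain. The invariant chain, encoded by Cd74, guides newly made class II molecules to the compartment where peptides are loaded. Mice of the BL/6 and 129 strains carry the H-2b haplotype, in which the I-A molecule is made from H2-Aa and H2-Ab1, while I-E is not formed because its alpha chain gene is defective. H2-Eb1, which encodes the I-E beta chain, is still transcribed.

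Class II genes are switched on together through a shared promoter block, in which an X box is followed by a Y box bound by NF-Y. The stretches around letters of the X box and the Y box are shown for both H2-Aa and H2-Eb1, the class II members with a promoter in the RefSeq table (GRCm38.p6). The first lies at chr17:34287837-34287934 on the minus strand and the second at chr17:34305746-34305842 on the plus strand. Both are upstream of the gene's start, with the letters searched (GCAAC and CTGATTGG) in capitals.
H2-Aa: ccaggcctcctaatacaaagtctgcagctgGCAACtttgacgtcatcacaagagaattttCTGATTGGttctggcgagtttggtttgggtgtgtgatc
H2-Eb1: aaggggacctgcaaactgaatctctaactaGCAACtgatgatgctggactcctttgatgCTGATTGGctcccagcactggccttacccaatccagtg
The motif letters were chosen after these sequences had been looked at, and a match is a description, not a site. The gap between the motifs was 25 bases in H2-Aa and 24 in H2-Eb1, and the Y box ended 43 and 54 bases before the start. On either strand, GCAAC was found in the 250 bases upstream of 29.9% of 32851 promoters and CTGATTGG in 3.83%. The pair in this order, 10 to 40 bases apart, was found in 38 promoters (0.116%). Cd68, C1qb and Lyz2 were the other members with a promoter in the table, and these letters did not occur as a pair in any of them. Among 17 other class II pathway genes with a promoter, the pair was found in H2-Eb2 and H2-Oa.

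Values are signal intensities, not logged, and per the labels the authors brought each array to a mean signal of 125. A signal of 50 served as the mark for a usable level: between 46.0% and 63.1% of an array's probe sets reached it, while the 15 bacterial control probe sets on type A lay between 0.5 and 31.3 on every array. The test was limma on log2(signal + 16), applied to the 26941 probe sets with 2 or more of their 22 arrays at 50 or higher. A call needed both an adjusted p under 0.05 and a difference of 2-fold or more on that shifted scale, which understates changes of low signals. The number of arrays limits the precision. Because whole testes were measured and each array was scaled, fewer cells of a type and less RNA per cell cannot be told apart.

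The testis label held for its defining markers. Prm1, the sperm protamine, lay between 10500 and 16479 at days 30 to 56, and 10 of 13 germ cell markers were called higher there than at days 0 to 6. Some libraries stood apart. Within-day correlation was lowest at day 0 on every array type. Actin 3' control signals ran from 1187 to 2835 in the libraries of sample 1 at days 0 to 20 and from 3678 to 8344 in those of sample 2. In the 6 libraries of days 30 to 56 they ran from 3237 to 5937. Libraries with the low control signal thus occurred only in the stages before day 30, and there only in sample 1, while sample 2 of the same days did not have it. The part of the low control signal in differences between stages was not tested. Before day 30, Prm1 reached 540 in day 3 sample 1 and 759 in day 6 sample 2, against 4.3 to 129 in the 14 other samples. Tnp2, a transition protein gene of spermatids, stood at 95 and 143 in the same libraries and at 19.1 to 60.7 in the others. Results were therefore also computed without day 3 sample 1 and day 6 sample 2. Other settings left out days 0 and 20, or took them from sample 2 alone. The sample 1 libraries of days 0 to 20 were not left out as a group.

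The signal filter was passed by 11 of the 18 member probe sets, covering 9 of the 10 genes. Only 2 of these 11 changed over the 11 days in limma's F-test, Cd74 and H2-Ab1, where 43.1% of all tested probe sets did. None of the 11 was called between stages. The share of all probe sets called was 1.61% from days 0 to 6 to days 8 to 10, 8.52% from there to days 14 to 20, 13.1% from days 14 to 20 to days 30 to 56, 13.5% from days 0 to 6 to days 14 to 20 and 30.3% from days 0 to 6 to days 30 to 56. Members with an unadjusted p under 0.05 numbered 0, 2, 3, 2 and 7 of 11 in the same order, beside 15.9%, 31.5%, 44.4%, 40.5% and 59.4% of all probe sets. In the last comparison, 4 of 11 had an adjusted p under 0.05 at any fold, where 55.0% of all probe sets did. The 10 steps between neighbouring days called no member, and 7.89% of all probe sets were called in at least 1 of them. Over all 18 member probe sets without the filter, the median log2 change from days 0 to 6 to days 30 to 56 was 0.02, with 9 above 0 and 9 below, beside a median of -0.16 over all probe sets.

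Cd74, the invariant chain gene, had the smallest adjusted p of the 11 tested member probe sets in the F-test (101054_at). At day 0 its signal was 44.6 in sample 1 and 81.8 in sample 2. It was 62.8 and 52.9 at day 3 and 75.0 and 76.2 at day 6. The lowest signal came at day 8, with 39.3 and 57.8 in its samples, and day 10 gave 64.4 and 60.9. From day 14 on every sample was higher than every sample of days 8 and 10, which held for 4.52% of all tested probe sets from days 8 to 10 to days 14 to 20. Signals were 81.2 and 89.3 at day 14, 92.4 and 98.0 at day 18, and 86.5 and 133 at day 20. The signal then stood at 96.0 and 140.1 at day 30, 120.2 and 116 at day 35, and 107 and 104 at day 56.

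By stage, the median Cd74 signal was 68.9 at days 0 to 6, 59.3 at days 8 to 10, 90.8 at days 14 to 20 and 112 at days 30 to 56. All 6 samples of days 30 to 56 lay above all 6 of days 0 to 6. Of the 11 tested member probe sets only that of Cd74 did so, as did 13.9% of all tested probe sets, and of the 7 below the filter 1 did, of H2-Aa. The range of day means was 1.07 on the log2 scale (2.10-fold, limma F-test, adjusted p = 0.0113). From days 0 to 6 to days 30 to 56 the difference was 0.68 ± 0.15 (SE), or 1.61-fold, with a 95% interval of 0.37 to 1.00 and an adjusted p of 0.000722 in limma. This step passed the p threshold but not the 2-fold minimum. Leaving out each sample in turn gave 0.57 to 0.80, with adjusted p of 0.00014 to 0.00407. The difference appeared between days 8 to 10 and days 14 to 20 (0.66 ± 0.16, limma adjusted p = 0.00831, but 0.0572 without day 8 sample 1). From days 14 to 20 to days 30 to 56 it was 0.21 ± 0.15, with an interval of -0.10 to 0.52 and an adjusted p of 0.29. Besides macrophages, B cells and dendritic cells carry class II molecules: the summed signal of 11 B cell markers ran from 376 to 492 at days 0 to 6 and from 424 to 585 at days 30 to 56, and that of 10 dendritic cell markers from 844 to 1611 and from 761 to 944, and their part in the Cd74 signal was not tested. Without day 8 sample 1 the range of day means was 0.86, under 2-fold, at an adjusted p of 0.0339 in limma.

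H2-Ab1, which encodes the beta chain of I-A, had its highest signals around day 20 (probe set 100998_at). Newborn samples gave 34.4 and 31.3. Signals were then low, at 9.1 and 10.3 on day 3, 7.1 and 16.3 on day 6, and 10.6 and 13.6 on day 8, all within the range of the bacterial controls. They were 34.6 and 15.9 at day 10 and 55.5 and 37.1 at day 14. Day 18 split into 58.2 in sample 1 and 14.5 in sample 2, and day 20 reached 79.8 and 60.7. Later samples were 45.3 and 61.9 at day 30, 60.7 and 18.6 at day 35, and 16.8 and 42.6 at day 56. The samples of days 18, 35 and 56 thus lay far apart, and the stages overlapped.

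The range of H2-Ab1 day means was 1.74 on the log2 scale (3.34-fold, limma F-test, adjusted p = 0.0293). This call was lost when any of 7 single samples was left out, namely both samples of day 3, sample 1 of day 6, both of day 8, sample 1 of day 20 and sample 2 of day 30, with adjusted p of 0.0515 to 0.0714. It was also lost with day 0 and day 20 taken from sample 2 alone (adjusted p = 0.0858), without days 0 and 20 (0.0864), and without day 3 sample 1 and day 6 sample 2 (0.0808). Between stages the difference from days 0 to 6 to days 14 to 20 was 0.96 ± 0.25, or 1.94-fold, with an interval of 0.44 to 1.48 (limma adjusted p = 0.00603). Leaving out each sample in turn gave 0.74 to 1.17 and adjusted p of 0.00114 to 0.0255. Against days 0 to 6, days 30 to 56 were higher by 0.73 ± 0.25 (limma adjusted p = 0.0187). That p rose to 0.0512 to 0.0787 without day 6 sample 1, day 30 sample 2, day 35 sample 1 or day 56 sample 2. The probe set reached 50 on 6 arrays, all at days 14 to 35, and so passed the filter only through ages of high signal. With no signal filter, the limma adjusted p of H2-Ab1 was 0.0369 in the F-test. From days 0 to 6 it was then 0.00775 to days 14 to 20 and 0.0234 to days 30 to 56.

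H2-Aa, the alpha chain partner of H2-Ab1, had 3 probe sets that did not follow one another. On 92866_at the 12 samples of days 0 to 14 lay between 6.6 and 15.6 and the 10 samples from day 18 on between 17.4 and 50.3, with no overlap. That split of days was noticed in the data. The probe set reached 50 on 1 array only, at day 56, and so did not enter the main test. With no signal filter, the range of its day means was 1.06 (2.09-fold, limma F-test, adjusted p = 0.00712), where 31.6% of 36701 probe sets were called. The difference from days 0 to 6 to days 30 to 56 was then 0.69 ± 0.15 (limma adjusted p = 0.000954). Most of these signals lie within or near the range of the bacterial controls. The probe set 167072_r_at had medians of 63.2 at days 0 to 6 and 41.4 at days 30 to 56 (-0.44 ± 0.23, limma adjusted p = 0.118), and 169296_at ran from 4.8 to 54.0 with no stage apart from the others. The correlation of 92866_at with 167072_r_at over 22 samples was -0.52.

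H2-Eb1 signals of 1 day often lay far apart (94285_at). Both samples were high at day 14 (73.0 and 75.4) and day 35 (81.5 and 83.9), and both were low at day 6 (22.2 and 24.9). Day 20 gave 19.2 and 82.2, and day 30 gave 13.8 and 59.9. The difference from days 0 to 6 to days 30 to 56 was 0.27 ± 0.25, with an interval of -0.27 to 0.80 (limma adjusted p = 0.39). In the F-test the adjusted p was 0.2, and 0.0454 or 0.0474 when sample 1 or sample 2 of day 20 was left out. The other H2-Eb1 probe set, 116266_at, stayed between 4.4 and 40.3.

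**Figure D1:**
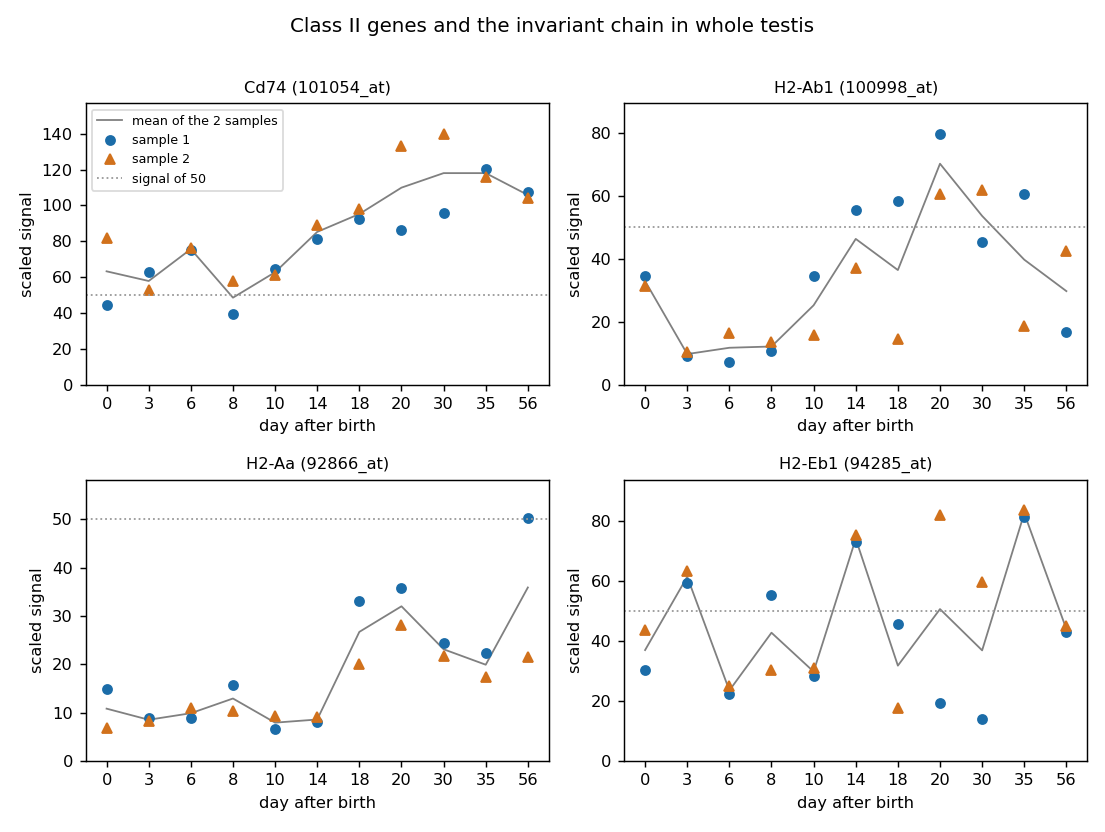
Scaled signal of Cd74, H2-Ab1, H2-Aa and H2-Eb1 in whole testis against day after birth (days evenly spaced on the axis). Circles are sample 1, triangles sample 2, the line is their mean and the dotted line a signal of 50. Cd74 lies above 80 in every sample from day 14 on, while the samples of H2-Ab1 and H2-Eb1 spread widely within days. H2-Aa is shown on 92866_at, which did not pass the filter. The tested H2-Aa probe set, 167072_r_at, is not shown and did not follow it.

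The macrophage members stayed within 2-fold from stage to stage. Csf1r on 104354_at was between 58.9 and 106.4 in all 22 samples. Its highest signals were at day 0 (106.4 and 87.4) and its lowest day mean was at day 56 (58.9 and 61.8). The stage medians were 79.5, 65.9, 77.9 and 64.2, and the stages overlapped. The difference from days 0 to 6 to days 30 to 56 was -0.26 ± 0.12, with an interval of -0.51 to -0.01 (limma adjusted p = 0.0774). The second Csf1r probe set, 161832_r_at, went the other way, from a median of 52.8 to one of 69.0 (0.34 ± 0.13, limma adjusted p = 0.0405). Its adjusted p was 0.0683 to 0.117 when any of 7 single samples was left out, among them day 56 sample 2. The correlation between both probe sets was -0.52 over 22 samples.

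Cd68, which encodes a lysosomal glycoprotein of macrophages, had stage medians of 73.0, 78.8, 78.1 and 50.5 on 103016_s_at. Signals at days 0 to 6 ran from 56.7 to 79.7 and at days 30 to 56 from 28.9 to 65.1, with overlap. At day 35 the samples gave 42.9 and 48.5, and at day 56 they gave 28.9 and 59.9. The difference between these stages was -0.42 ± 0.17, or 1.34-fold lower (limma adjusted p = 0.0386). From days 14 to 20 it was -0.44 ± 0.17 (limma adjusted p = 0.046). Neither difference held its p under another scaling: after scaling to the array median they were -0.24 (adjusted p = 0.285) and -0.37 (0.135) in limma. Without day 56 sample 1 the first was -0.30 (limma adjusted p = 0.141). The second Cd68 probe set, 162173_i_at, lay at 1.7 to 16.1 throughout.

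The authors' scaling bears on each of these small differences. Under it, the median log2 change of all tested probe sets from days 0 to 6 to days 30 to 56 was -0.25, and with scaling to the array median it was -0.02. Cd74 then differed by 0.88 ± 0.13 and H2-Ab1 by 0.86 ± 0.25 (limma adjusted p = 1.63e-05 and 0.00823). For Csf1r the difference on 104354_at shrank from -0.26 to -0.07 (limma adjusted p = 0.699), and to -0.05 with quantile normalization, while that on 161832_r_at grew from 0.34 to 0.52 (0.00276). Lyz2 went from -0.33 to -0.15 (limma adjusted p = 0.46). No tested member difference between these stages turned its sign under quantile normalization or median scaling.

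Lyz2, the lysozyme gene of macrophages and neutrophils, had stage medians of 76.5, 71.2, 76.3 and 56.5 on 100611_at. The lowest sample was 37.3, at day 20, and the highest 91.9, at day 18. The difference from days 0 to 6 to days 30 to 56 was -0.33 ± 0.15, with an interval of -0.63 to -0.02 (limma adjusted p = 0.0702). A second probe set, 162309_at, was at 0.6 to 9.3. One more probe set is annotated to Lyz1 and Lyz2 together (101753_s_at) and was not counted as a member. It ran from 17.5 to 108 at days 0 to 6 and from 10.5 to 46.2 at days 30 to 56.

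Adgre1, which encodes the F4/80 antigen used to stain mouse macrophages, was not measured above 50 on any array. Its probe sets lay between 6.2 and 28.2 (103507_at) and between 3.7 and 28.0 (161377_at), all within the span of the bacterial controls. On 103507_at the samples above 20 were sample 1 of days 10, 30 and 35, at 27.0, 28.2 and 26.0, while sample 2 of those days was at 10.8, 7.9 and 7.8. No age difference can be read at this level.

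C1qa and C1qb encode the A and B chains of C1q. On 98562_at C1qa gave 261 in day 0 sample 1 and 112 in day 0 sample 2, and 254 and 150.5 at day 20. In the other 9 days both samples lay between 92.7 and 187, and day 56 was lowest (98.5 and 92.7). C1qb on 96020_at had the same outlying libraries, at 217 against 64.1 at day 0 and 160.3 against 84.0 at day 20. In the other days it lay between 56 and 105. The correlation of both probe sets over the 22 samples was 0.66, to which these libraries contribute.

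Other measures of sample 1 of day 0 and sample 1 of day 20, both high in C1q, were as follows. The actin 5' to 3' control ratio was 0.896 in day 20 sample 1, above all other samples, and 0.745 in day 0 sample 1, within the 0.562 to 0.775 of the other 20. The summed signal of 7 erythroid markers was 8798 and 5417 in these libraries and 5003 and 2501 in sample 2 of the same days. The summed signal of 34 macrophage receptor and lineage genes was 3407 and 1715, against 2758 and 1598. Their part in the C1q signals was not tested.

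Neither C1q gene was called. For C1qa the difference from days 0 to 6 to days 30 to 56 was -0.40 ± 0.17 (limma adjusted p = 0.063), and from days 14 to 20 it was -0.46 ± 0.17 (0.0481). With scaling to the array median these were -0.20 (limma adjusted p = 0.464) and -0.38 (0.188). For C1qb the first difference was 0.09 ± 0.21, with an interval of -0.36 to 0.53 (limma adjusted p = 0.745). With day 0 and day 20 from sample 2 alone, it was 0.35 (adjusted p = 0.0341) for C1qb and -0.21 (0.152) for C1qa in limma. Without day 0 sample 2, which leaves the high library alone at day 0, the F-test in limma called both C1qa (adjusted p = 0.0299) and C1qb (0.0349). The second C1qb probe set, 162276_i_at, ran from 14 to 67.5 and correlated with 96020_at at -0.45.

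**Figure D2:**
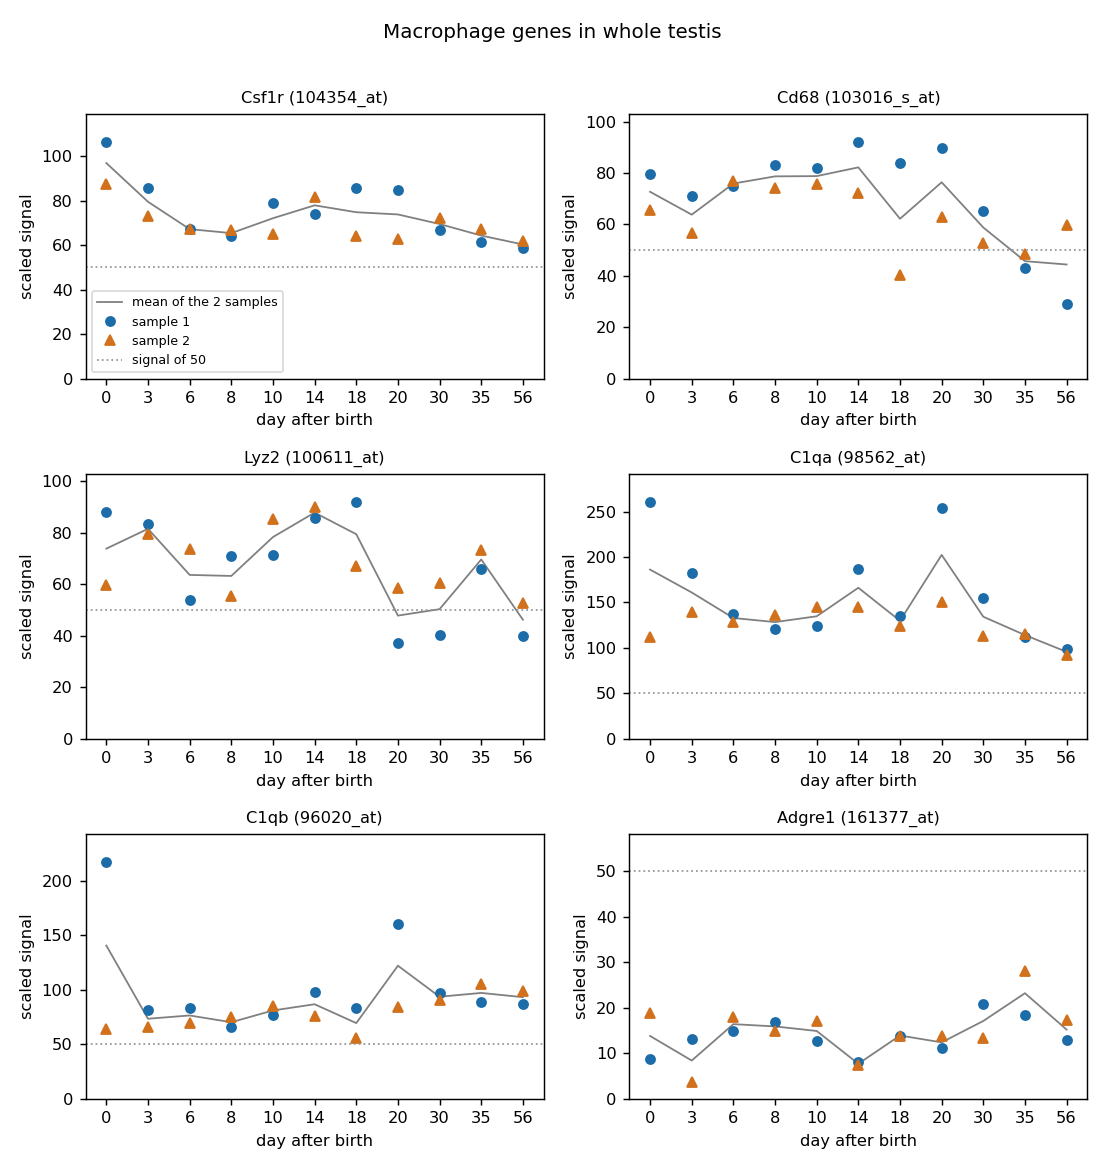
Scaled signal of Csf1r, Cd68, Lyz2, C1qa, C1qb and Adgre1 against day after birth (days evenly spaced), with circles for sample 1, triangles for sample 2, a line for their mean and a dotted line at 50. Sample 1 of days 0 and 20 stands out in C1qa and C1qb, and Adgre1 stays below 30. Csf1r is shown on 104354_at, and its other probe set, 161832_r_at, which went the other way, is not shown.

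More than 1 probe set was present for 7 members, giving 9 pairs within a gene. Their correlations over 22 samples ranged from -0.60 (H2-Eb1) to 0.30 (H2-Aa, 167072_r_at with 169296_at), and 6 of the 9 were below 0. The pairs share libraries and scaling, and 7 of the 18 probe sets were below the filter. For Csf1r, H2-Aa and H2-Eb1, the difference from days 0 to 6 to days 30 to 56, computed without the filter, was above 0 on 1 probe set and below 0 on another. For H2-Eb1 it was 0.27 on 94285_at and -0.48 on 116266_at.

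**Figure D3:**
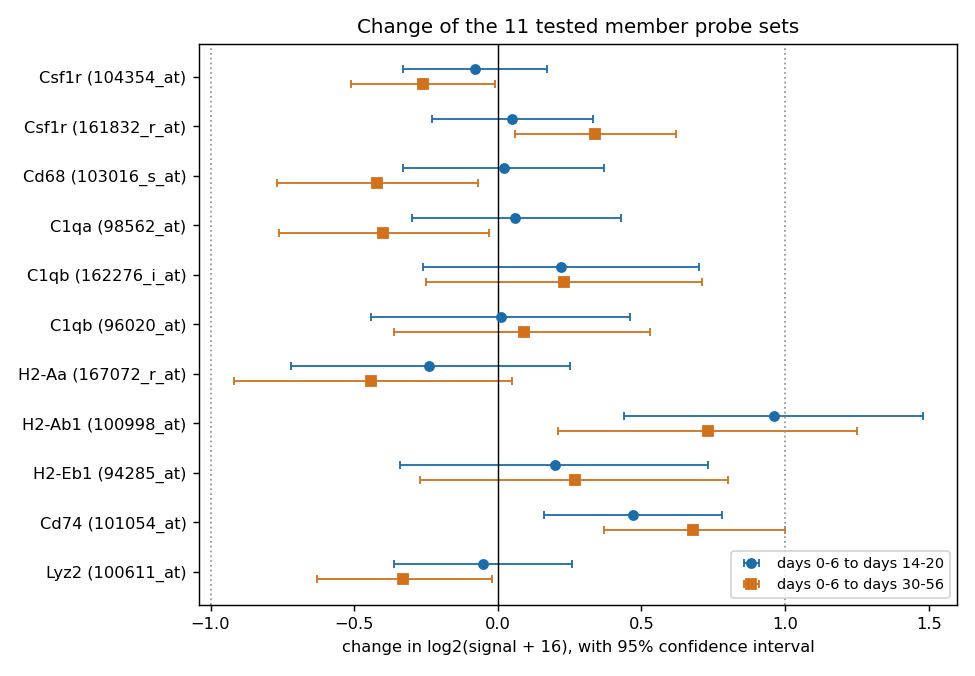
Difference in log2(signal + 16) from days 0 to 6 to days 14 to 20 (circles) and to days 30 to 56 (squares) for the 11 member probe sets that passed the filter, with 95% confidence intervals from limma. Dotted lines mark 2-fold. The intervals of Cd74 and H2-Ab1 lie above 0 in both comparisons, and no estimate reaches 2-fold.

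Other genes of the same pathways, taken from lists and measured on 1 probe set a gene, included larger differences than any member's. Of 34 measured macrophage receptor and lineage genes, 19 passed the filter. From days 0 to 6 to days 30 to 56, 1 was called higher and 3 lower in limma (list median -0.23), where 12.1% of all probe sets were called higher and 18.2% lower. Those lower were Maf (-2.65 ± 0.21), Cebpa (-1.68 ± 0.16) and Cebpb (-1.40 ± 0.23), transcription factors that other tissues also use. The gene called higher was Aif1, which encodes the macrophage and microglia marker IBA1. Its signal was 6.18 ± 1.13 (SD, n = 6) at days 0 to 6, 5.73 ± 1.89 at days 14 to 20 and 1072 ± 330.0 at days 30 to 56 (5.57 ± 0.12, limma adjusted p = 1.04e-15). Aif1 reached 50 on 6 arrays and so passed the filter only through days 30 to 56. Which cells of the whole testis gave the Aif1 signal was not tested. No member was called between these stages. Signal levels differed widely within this list: 10 of the 34 genes never reached 50, and 7 did so on all 22 arrays. Among the 10 were the integrin gene Itgam, which never passed 14.8, and Ptprc, which encodes CD45 and never passed 25.6. Among the 7 were the chemokine receptor gene Cx3cr1 (90.6 to 371.4), the lipopolysaccharide receptor gene Cd14 (123.7 to 219.2), the scavenger receptor gene Stab1 (108.7 to 217.4) and the folate receptor gene Folr2 (53.9 to 113.7). These 6 genes were named after their values were seen.

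Of 25 tested lysosomal and effector genes of macrophages, 10 were called lower and 0 higher between these stages in limma (list median -0.73). Lamp2 (-2.53 ± 0.17), Cd63 (-2.28 ± 0.16), Cyba (-1.85 ± 0.23) and Ctsh (-1.83 ± 0.14) fell most, and all but Cyba encode lysosomal proteins found in most cells. C1qc, the gene of the third C1q chain, was not called (176 ± 49.3 at days 0 to 6 and 152 ± 37.3 at days 30 to 56, SD, n = 6). It was named after its values were seen.

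Of 22 other class II pathway genes, 15 were tested. In limma none was called from days 0 to 6 to days 14 to 20. At any fold, 2 of the 15 had an adjusted p under 0.05 and positive sign and 2 a negative sign. Over all probe sets these shares were 14.4% and 17.5%. By days 30 to 56, 0 of the 15 were called higher and 3 lower (list median -0.22). The genes called lower were Ifi30 (-1.72 ± 0.24), a lysosomal thiol reductase, Creb1 (-1.69 ± 0.20) and Nfyc (-1.01 ± 0.12), which encode factors that act on class II and on many other promoters. H2-DMa, which loads peptide on class II, was named after its values were seen. It was at 43.1 ± 19.5 at days 0 to 6 and 105 ± 46.0 at days 30 to 56 (SD, n = 6), a difference of 0.98 ± 0.25 (limma adjusted p = 0.00274) that missed 2-fold. From days 8 to 10 to days 14 to 20 (82.6 ± 21.5 in the latter, SD, n = 6) H2-DMa was called higher (1.07 ± 0.28, limma adjusted p = 0.00983). It was the only one of the 15 called in that comparison, where 4.81% of all probe sets were called higher. Ciita, the master activator of class II genes, reached 50 on 1 array only and was not tested.

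From days 0 to 6 to days 14 to 20, 2 of 17 tested class I pathway genes were called higher and 2 lower in limma. Over all probe sets 6.62% were called higher and 6.84% lower. The class I genes H2-K1 and H2-D1 were those called higher, and B2m and Psme1 those called lower. H2-K1 (93120_f_at) went from 237 ± 50.3 at days 0 to 6 to 1049 ± 168 at days 14 to 20 and 647 ± 67.7 at days 30 to 56 (SD, n = 6). H2-D1 (97540_f_at) went from 155 ± 26.9 to 685 ± 146 and 416 ± 6.95. The rises to days 14 to 20 were 2.08 ± 0.12 and 2.03 ± 0.12 (limma adjusted p = 5.74e-10 and 1.26e-09). Both probe sets carry the suffix used for gene families and class I genes are nearly identical, so the gene behind the signal is uncertain. From days 0 to 6, B2m, the light chain of class I molecules, changed by -1.08 ± 0.22 to days 14 to 20 and by -1.6 ± 0.22 to days 30 to 56. For the proteasome activator gene Psme1 these changes were -1.39 ± 0.23 and -2.38 ± 0.23. In all, 2 of 17 tested class I pathway genes were called higher and 2 lower from days 0 to 6 to days 30 to 56 (list median -0.33).

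Of 12 tested complement genes other than the members, 1 was called higher and 4 lower by days 30 to 56 (list median -0.61). Cd55, which protects cells from complement, rose from 20.9 ± 8.87 to 134 ± 42.8 (SD, n = 6; 2.01 ± 0.16), while the differences of Cfi, Cd59a and C1ra were -1.57, -1.40 and -1.25. Cd55 and Cfi reached 50 on 6 and 3 arrays, and each passed the filter only through the stage where it was high. Of 27 measured interferon response genes, 10 never reached 50. Among these 10 were Isg15, Ifit1, Ifit2, Ifit3 and Mx1, named after their values were seen. Of the 16 tested, 0 were called higher and 6 lower (list median -0.78), with the largest fall in the kinase gene Jak1 (-3.01 ± 0.20). Bst2 fell by 2.18 ± 0.26. The shares of 12.1% higher and 18.2% lower over all probe sets apply to each of these lists.

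**Figure D4:**
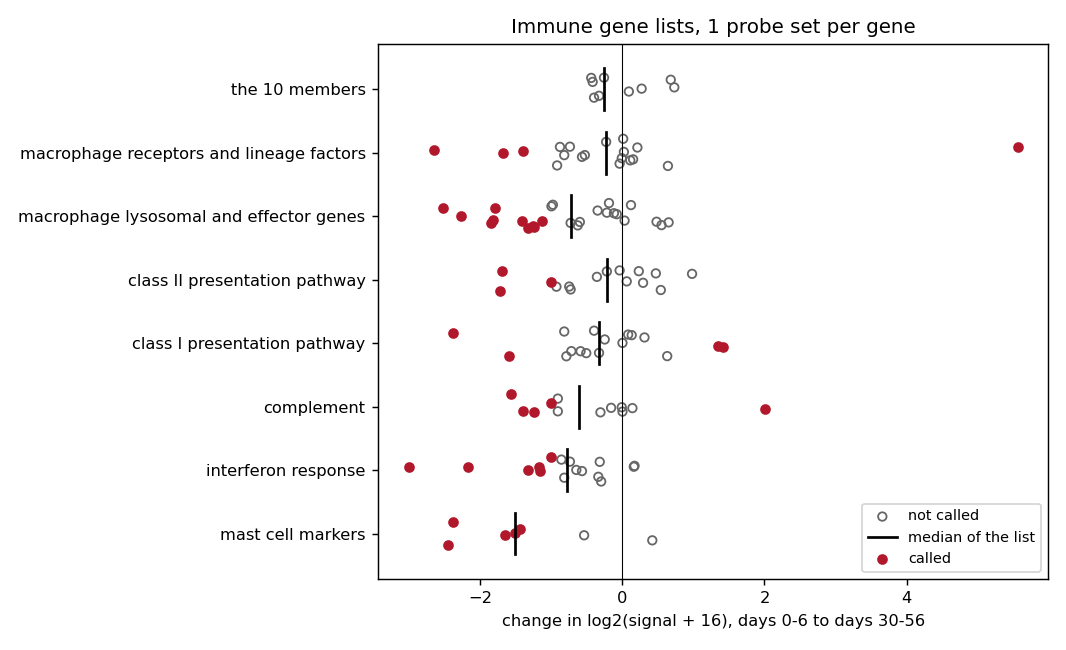
Difference in log2(signal + 16) from days 0 to 6 to days 30 to 56 for each tested gene (1 probe set a gene) of 7 immune gene lists and of the 10 members, of which 9 were tested. Filled points were called by limma, open points were not, and black bars are list medians. No member was called, and Aif1 at 5.57 lies far from all other genes shown.

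The genes whose signals most resembled those of the members were found by correlation over the 22 samples. For the mean standardised signal of 5 macrophage members (Csf1r, Cd68, C1qa, C1qb and Lyz2) they were Atraid (0.89), Trappc1 (0.85), Maf1, Sdhd and Ifitm3 (0.82 each) and Uqcc3 (0.81). For the 4 class II members they were Slc25a38 (0.75), Map3k10 (0.74), Tmem127 (0.73), Abcb6 and Rmnd5b (0.72 each) and Dmap1 (0.71). These are the highest of all tested genes and describe these samples, which share libraries and scaling. The class II mean took H2-Aa from 167072_r_at, which correlated at -0.38 with Cd74 and at -0.13 with H2-Ab1, so it mixes unlike courses.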

How the data were processed

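The deposited values are 1 signal intensity per probe set and array, scaled by the authors to a mean of 125, per the labels. The software that made them is not given in the sources used here. Probe sets were named by the deposited platform annotation. The members and gene lists were chosen with earlier results of these data known.

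Intensities were analysed as log2(signal + 16) in limma 3.58.1 (R 4.3.3) by array type, with 11 day means, a variance trend and two-sided p values adjusted by Benjamini-Hochberg over 26941 probe sets. The method was tested on simulated data. Sample numbers were not used to pair the samples in the main fit. Correlations of same-numbered deviations ran from -0.21 to 0.55 (median 0.1) over 55 pairs of days on type A. They ran from -0.01 to 0.39 (median 0.13) on type B and from -0.06 to 0.29 (median 0.06) on type C. Named genes were all members, up to 4 called genes of each list with the largest change to days 30 to 56 and up to 4 to days 14 to 20, and 6 genes most like each member group. Each list gene is its probe set of highest mean signal. Further lists were T cell, B cell, neutrophil, mast cell, dendritic cell, erythroid, endothelium, Leydig, Sertoli, peritubular and germ cell markers.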

Additional observations from a re-analysis of the deposited data

How the results depend on the processing

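Over 37 alternatives, 34 planned and 3 added after seeing the data, 2336 of 2382 member values kept their call, 16 lost it and 30 gained it. Estimates took the other sign in 90 of 1985 recomputed stage differences, none of them called or past an adjusted p of 0.05 in limma. They belonged to 20 of the 55 member stage differences, each of at most 0.2 in size as reported. The F-test count of 2 became 0 with a pseudocount of 64 or an adjusted p under 0.01, and 1 with a floor of 32, a filter of 125 (which leaves 3 member probe sets), day 0 and day 20 from sample 2 alone, or day 3 sample 1 and day 6 sample 2 left out. It was 0 to 4 when 1 sample was left out: it was highest without sample 2 of day 0 and 0 without sample 1 of day 8. From days 0 to 6 to days 14 to 20, the count of 0 became 1 with a pseudocount of 1, quantile normalization, median scaling, days 0 and 20 left out, or day 3 sample 1 and day 6 sample 2 left out, and 2 with no minimum fold. From days 8 to 10 to days 14 to 20 it became 1 with a pseudocount of 1 or median scaling and 2 with no minimum fold. Both ranged from 0 to 1 when 1 sample was left out. From days 0 to 6 to days 30 to 56 it became 1 with a pseudocount of 1 or without days 0 and 20, and 4 with no minimum fold. From days 14 to 20 to days 30 to 56 it became 2 with no minimum fold. In each case of a single gain between stages the gene was H2-Ab1. The cause was not tested beyond what each setting itself changes. With the sample number as a replicate block, the F-test count was 2 and every count between stages 0, so the block changed no member count. The mean correlation with same-numbered samples was above 0 on 10 of 11 days on type A, 11 on type B and 10 on type C. What the numbers mark is not labelled. Signals near the controls limit Adgre1, H2-Aa and 3 more second probe sets.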

Other observations

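Of 7 tested mast cell markers, 5 were called lower in limma by days 14 to 20 (list median -1.46) and 5 by days 30 to 56 (-1.51), and 0 were called higher. Over all probe sets 6.84% were called lower in the first comparison, and in the second 18.2% lower and 12.1% higher, shares that apply to all counts by days 30 to 56 given here. Tpsab1, a mast cell tryptase gene, went from 108 ± 89.7 (SD, n = 6) at days 0 to 6 to 2.42 ± 0.407 at days 14 to 20 and 3.53 ± 0.565 at days 30 to 56 (-2.45 ± 0.25). The log2 change was -2.38 ± 0.26 for the chymase gene Cma1, -1.65 ± 0.19 for the tryptase gene Tpsb2, -1.51 ± 0.21 for Mcpt2 and -1.45 ± 0.19 for the carboxypeptidase gene Cpa3 from days 0 to 6 to days 30 to 56. The summed signal of 10 mast cell markers ran from 571 to 1514 at days 0 to 6 and from 451 to 513 at days 8 to 10. It ran from 333 to 510 at days 14 to 20 and from 362 to 437 at days 30 to 56. Day 0 gave 1514 in sample 1 and 949 in sample 2.

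Of 7 tested neutrophil markers, 3 were called lower by days 30 to 56, S100a8 (-1.74 ± 0.18), S100a9 (-1.59 ± 0.18) and Camp (-1.12 ± 0.20). One, Lcn2, was called higher, from 40.2 ± 22.2 to 789 ± 266 (SD, n = 6; 3.88 ± 0.24). Of 11 measured T cell markers, 2 were tested, and between the same stages Cd4 rose by 1.05 ± 0.15 while Cd3d changed by -1.14 ± 0.36. None of 7 tested B cell markers was called in limma. At any fold, 3 of the 7 had an adjusted p under 0.05, 2 higher and 1 lower, where 55.0% of all probe sets did. Of 9 tested dendritic cell markers, 2 were called lower, Ccl17 (-1.94 ± 0.17) and Zbtb46 (-1.92 ± 0.18). Of the other cell types, 0 of 6 tested erythroid, 0 of 11 endothelium, 2 of 9 Leydig cell, 1 of 12 Sertoli cell and 1 of 7 peritubular markers were called higher by days 30 to 56, and 1, 4, 3, 5 and 4 lower.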
